A study of Mus musculus with 6 samples.

Results

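Cell cycle and proliferation genes were followed in RNA from whole pancreatic islets of mice in which Klf4 was targeted in alpha cells. The 45 members were fixed by name, as cyclins, cyclin-dependent kinases, replication factors and mitotic genes, and all 45 were found among the 55536 genes of the count table. The control group held 3 libraries from Klf4+/+;Gcg-iCre islets and the knockout group 3 libraries from Klf4fl/fl;Gcg-iCre islets, so every mouse carried the Cre driver under the glucagon gene, which acts in alpha cells, and the groups differed in the floxed Klf4 alleles. The background is given as C57B1/6J. Age and sex of the animals are not among the labels, and nothing in the labels says whether a library is 1 mouse or a pool, so p-values measure the spread between these 6 libraries.

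A dividing cell passes from G1 through DNA synthesis (S) and G2 into mitosis (M). D-type cyclins with Cdk4 or Cdk6 act on the retinoblastoma protein in G1, which frees E2F factors to switch on cyclin E and the replication genes. The genes of mitosis come on later, under the MuvB complex with B-Myb and FoxM1. Adult islet cells divide rarely, beta cells depend on cyclin D2 for their replication after birth, and endothelial, immune, stromal and acinar cells in an islet preparation can also be cycling. In whole-islet RNA, fewer cycling cells and less RNA per cycling cell cannot be told apart, and the counts do not show which cell type held a transcript.

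Libraries held 101277200 to 110243918 counts. The insulin, amylin and other beta-cell markers summed to 372341 to 405645 TPM (a gene's share of all transcripts, corrected for exon length) in every library, as the islet label says. Klf4 itself was not lower beyond the spread: its normalized counts were 3148, 2879 and 2015 in control replicates 1 to 3 and 2340.4, 2540.1 and 2277 in knockout replicates 1 to 3 (log2 fold change -0.17 ± 0.15 SE, DESeq2 adjusted p = 0.774), and gene counts do not show whether the floxed exons were read. Xist had 73469 to 108994 counts in the control libraries and 12 to 32 in the knockout libraries, while Ddx3y, Uty, Kdm5d and Eif2s3y had 0 counts in each control library and 3050 or more in each knockout library. In every difference below, genotype and sex cannot be told apart. On the first principal component, with 54.0% of the variance, the 3 control libraries lay at -25.8 to -24.3 and the knockout libraries at 62.5, 20.2 and -7.00, so knockout replicate 1 stood farthest from the rest.

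The letters before the transcription start are shown for 3 mitotic and 2 replication members, as examples of the different promoter elements for which these classes of gene are known. They were picked with the matches known, and Kif11 and Cdc6 are not among the members past the threshold. The cell cycle genes homology region (CHR), the site of the MuvB complex, was searched as TTTGAA or TTCGAA, the CCAAT box as CCAAT and the E2F site as TTTCCCGC or TTTGGCGC, each on both strands, in RefSeq promoters of GRCm38.p6 that run from 250 bases before to 50 bases after a start. None of these letter strings holds another. Capitals mark the matches, an opposite-strand match is written as it reads on the printed strand, and each sequence ends at the base before the start. Mki67 is chr7:135716380-135716529 on the minus strand, Top2a chr11:99024190-99024339 on the minus strand, Kif11 chr19:37376282-37376381 on the plus strand, Mcm6 chr1:128359706-128359855 on the minus strand and Cdc6 chr11:98908001-98908150 on the plus strand.
Mki67: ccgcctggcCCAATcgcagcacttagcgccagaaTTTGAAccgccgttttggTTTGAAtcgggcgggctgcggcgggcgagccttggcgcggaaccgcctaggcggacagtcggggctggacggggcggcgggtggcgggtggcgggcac
Top2a: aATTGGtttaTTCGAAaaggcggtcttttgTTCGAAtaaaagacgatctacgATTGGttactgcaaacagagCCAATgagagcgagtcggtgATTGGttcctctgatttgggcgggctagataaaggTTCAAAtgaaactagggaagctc
Kif11: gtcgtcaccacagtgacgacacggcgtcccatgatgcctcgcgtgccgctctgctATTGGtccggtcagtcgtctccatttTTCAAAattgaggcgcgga
Mcm6: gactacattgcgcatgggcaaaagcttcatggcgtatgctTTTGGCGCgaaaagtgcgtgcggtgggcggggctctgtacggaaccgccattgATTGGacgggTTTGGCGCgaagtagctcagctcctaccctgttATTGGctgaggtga
Cdc6: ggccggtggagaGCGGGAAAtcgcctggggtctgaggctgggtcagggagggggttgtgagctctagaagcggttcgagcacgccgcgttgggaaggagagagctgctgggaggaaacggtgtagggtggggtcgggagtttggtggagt

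In these stretches Mki67, Top2a and Kif11 held 2, 3 and 1 CHR matches beside 1, 4 and 1 CCAAT boxes and no E2F match. Mcm6 and Cdc6 held 2 and 1 E2F matches, 2 and 0 CCAAT boxes and no CHR match. Over the whole windows, 36 of the 45 members had 39 promoters in the table. A CHR match together with a CCAAT box was found in 11 of the 15 promoters of mitotic members, in 3 of the 13 promoters of replication members and in 7.52% of all 32851 promoters. The box, with or without a CHR match, was common to both classes. It was in 13 of the 15 mitotic promoters, 10 of the 13 replication promoters and 37.4% of all promoters. A CHR match, with or without a box, was in 19.2% of all promoters. An E2F match was found in 0 of the 15 mitotic promoters, in 6 of the 13 replication promoters and in 1.56% of all promoters. The promoter of Cenpe held a CCAAT box and neither other element, and that of Cdk6 held none of the 3. Set against the counts, a CHR match was found in 8 of the 14 matched members with every knockout library above every control and in 7 of the other 22, and within the mitotic members in 8 of 12 and in 3 of 3. Aurka, Bub1b and Ccnb2 had a match and overlapping groups, and Ccnb1 had none and groups apart. A match is a string of letters and not a shown binding site.

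Of the 45 members, 5 rose in the knockout libraries at a DESeq2 adjusted p below 0.05 and 0 fell. They were Mki67, a gene of cycling cells, Top2a, Cenpe and Kif20a, genes of G2 and mitosis, and Cdk6, a kinase of G1. The increases of the 5 lay between 50.4% and 69.1%. Over all 17797 genes given an adjusted p, 2.19% passed, 1.53% as higher and 0.657% as lower, and 2.40% did among genes averaging 50 or more normalized counts, as every member did. All 45 members had at least 10 counts in total and were given an adjusted p, so none was lost to a filter. Their median log2 fold change was 0.22, beside -0.0061 for all genes given an adjusted p, and 35 of the 45 were positive, against 48.1% of genes averaging 50 or more. Without control replicate 1 the median of the members was 0.13.

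The members are given by their place in the cycle. The 19 members of the mitotic roles (proliferation markers, S/G2/M cyclins and Cdk1, mitotic kinases and checkpoint, spindle and kinetochore) were all positive, from 0.26 to 0.97 on the log2 scale, with a median of 0.59, or 0.39 without control replicate 1. The 13 replication members (licensing, fork and nucleotide synthesis) ran from -0.19 to 0.22 with a median of 0.03, or -0.035 without that library, and 0 of them passed. Every knockout library lay above every control library for 14 of the 19 mitotic members and for 0 of the 13 replication members, where 9.42% of the 15811 genes whose normalized counts averaged 50 or more did so. At an unadjusted p below 0.05, DESeq2 gave 13 of the 19 and 0 of the 13, beside 9.03% of all genes given a p. The difference between these lists was not tested, since the members were chosen with results in view.

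**Figure D1:**
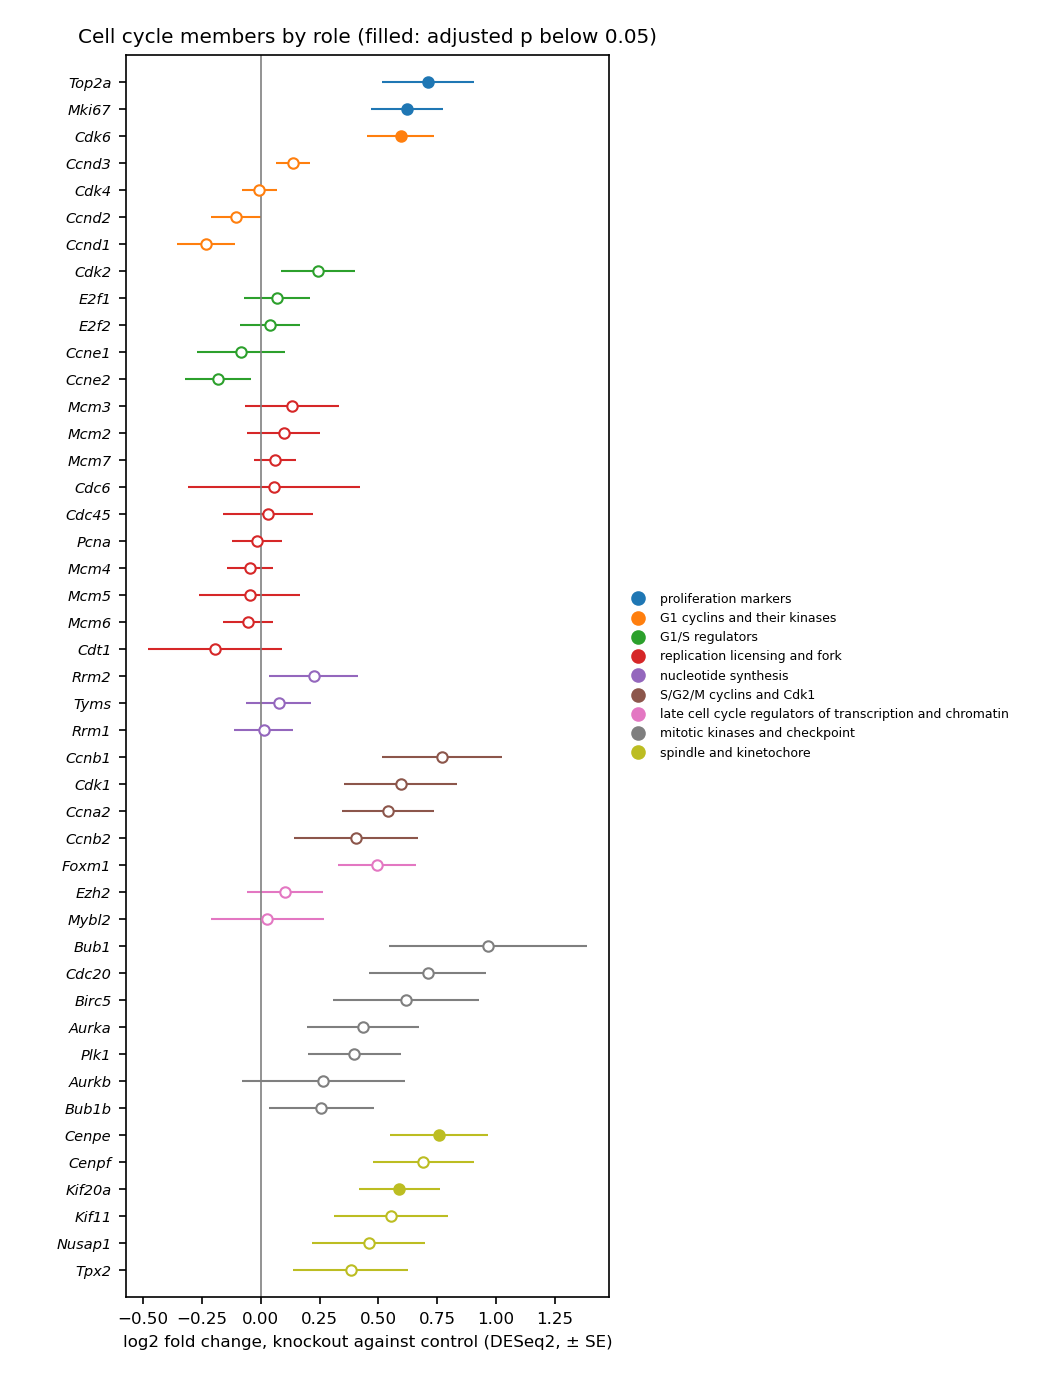
Log2 fold change of knockout against control for the 45 members, grouped by role on the vertical axis, with bars of 1 standard error from DESeq2. Filled points are the 5 members with an adjusted p below 0.05, and the mitotic roles lie to the right of 0 while the replication roles lie around it.

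Another test and the loss of a library changed these calls. The edgeR quasi-likelihood test called 0 of the 45 (16 at an unadjusted p below 0.05, beside 9.48% of all genes), where it called 0.115% of all genes, and the lowest edgeR adjusted p of a member was 0.201. Left without knockout replicate 1, DESeq2 called 0 members, without control replicate 3 it called 11 (Cdk6, Mki67, Top2a, Cenpe, Kif20a, Cenpf, Ccna2, Ccnb1, Aurka, Cdc20 and E2f1), and without control replicates 1 and 2 or knockout replicates 2 and 3, each alone, it called 3, 3, 2 and 2.

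Mki67 encodes the Ki-67 protein of cycling cells, which coats chromosomes in mitosis (ENSMUSG00000031004, chromosome 7, 135689784 to 135716361, minus strand, GRCm38). Its normalized counts, scaled by DESeq2 size factors, were 1176, 1446 and 1895 in control replicates 1 to 3 and 2410.3, 2341 and 2191 in knockout replicates 1 to 3. The knockout libraries lay close together and above all controls, and control replicate 3 was the highest control. The means were 1506 ± 363 and 2314 ± 112 (SD, n = 3 each), and the log2 fold change was 0.62 ± 0.15 (± SE here and throughout, DESeq2 adjusted p = 0.00503, edgeR adjusted p = 0.234). It passed in 3 of the 6 fits that left out a library.

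Top2a encodes topoisomerase II alpha, which untangles sister DNA before mitosis (ENSMUSG00000020914, chromosome 11, 98992943 to 99024189, minus strand). Normalized counts were 669, 833 and 1292 in the controls and 1583, 1394 and 1596 in the knockout libraries. The groups did not overlap, though control replicate 3 came near to knockout replicate 2. Means of 931 ± 323 and 1524 ± 113 gave a log2 fold change of 0.71 ± 0.20 (DESeq2 adjusted p = 0.020, edgeR adjusted p = 0.331). The call held in 1 of the 6 leave-one-out fits, that without control replicate 3.

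The S/G2/M cyclins and Cdk1 drive entry into mitosis. None of the 4 passed, and 3 of them had every knockout library above every control, beside 9.42% of genes averaging 50 or more. Ccna2, cyclin A2 of S phase and G2, had 264, 401 and 442 normalized counts in the controls and 529, 569 and 513 in the knockout libraries (log2 fold change 0.54 ± 0.20, DESeq2 adjusted p = 0.140). Ccnb1, the cyclin partner of Cdk1 at mitotic entry, had 91.2, 102 and 123 against 145, 200.1 and 194 (0.77 ± 0.26, DESeq2 adjusted p = 0.0855). For both genes each knockout library stood above each control, with control replicate 1 the lowest. Cdk1 itself had 141, 219.9 and 239.7 against 325, 249.6 and 331 (0.59 ± 0.24, DESeq2 adjusted p = 0.223), so that knockout replicate 2 lay only just above control replicate 3. Ccnb2 had 117, 199.7 and 123 against 184, 196 and 203 (0.40 ± 0.26, DESeq2 adjusted p = 0.620), and control replicate 2 fell inside the knockout range. Without control replicate 1 the log2 fold changes were 0.35 for Ccna2, 0.39 for Cdk1 and 0.26 for Ccnb2, and without control replicate 2 that of Ccnb2 was 0.69. Without control replicate 3, Ccna2 at 0.69 and Ccnb1 at 0.90 passed (DESeq2 adjusted p of 0.0202 and 0.0261), and Ccnb1 also passed at a threshold of 0.1.

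Spindle and kinetochore genes move and hold the chromosomes in mitosis. Of the 6, Cenpe and Kif20a passed and 5 had every knockout library above every control, beside the same 2.19% and 9.42% of genes. Cenpe, the kinetochore motor CENP-E (ENSMUSG00000045328, chromosome 3, 135212537 to 135273611, plus strand), had 165, 255 and 261 normalized counts in the controls and 407, 363 and 381 in the knockout libraries. Its log2 fold change of 0.76 ± 0.21 (DESeq2 adjusted p = 0.0194, edgeR adjusted p = 0.283) was the largest of the 5 calls, and it held in 3 of the 6 leave-one-out fits. Kif20a, a kinesin of the cleavage furrow (ENSMUSG00000003779, chromosome 18, 34624613 to 34633277, plus strand), had 287, 374 and 396 against 576, 481 and 532. That made a log2 fold change of 0.59 ± 0.17 (DESeq2 adjusted p = 0.0314, edgeR adjusted p = 0.302), passing in 2 of the 6. Exons of Kif20a share 1271 of their 4338 bases with Cdc23 on the opposite strand. Reads of the pair cannot be told apart without the strand setting, and Cdc23 had 5144 to 5833 normalized counts in controls and 5209.7 to 5367 in knockouts, which overlap.

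Among the other spindle genes, Cenpf, a large kinetochore protein of G2 and mitosis, stood closest to the threshold. It had 282, 469 and 564 normalized counts in the controls and 699, 707 and 714 in the knockout libraries, which were nearly equal (log2 fold change 0.69 ± 0.22, DESeq2 adjusted p = 0.0575). Kif11, the motor that pushes spindle poles apart, had 181, 372 and 335 against 441, 458 and 405 (0.55 ± 0.24, DESeq2 adjusted p = 0.303). Tpx2, a spindle assembly factor, had 190.4, 357 and 378 against 434, 413 and 359 (0.38 ± 0.24, DESeq2 adjusted p = 0.608), and its groups overlapped at control replicate 3 and knockout replicate 3. In all 3 genes control replicate 1 was the lowest library. Without control replicate 1 the log2 fold changes were 0.45 for Cenpf, 0.30 for Kif11, 0.26 for Nusap1 and 0.13 for Tpx2. Cenpf passed without control replicate 3 (0.91, DESeq2 adjusted p = 0.00113), with no filter on low counts (DESeq2 adjusted p = 0.0442) and with a stricter one (DESeq2 adjusted p = 0.0497). Nusap1, which bundles spindle microtubules, was at 0.46 ± 0.24 on the log2 scale with the groups apart (DESeq2 adjusted p = 0.470).

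**Figure D2:**
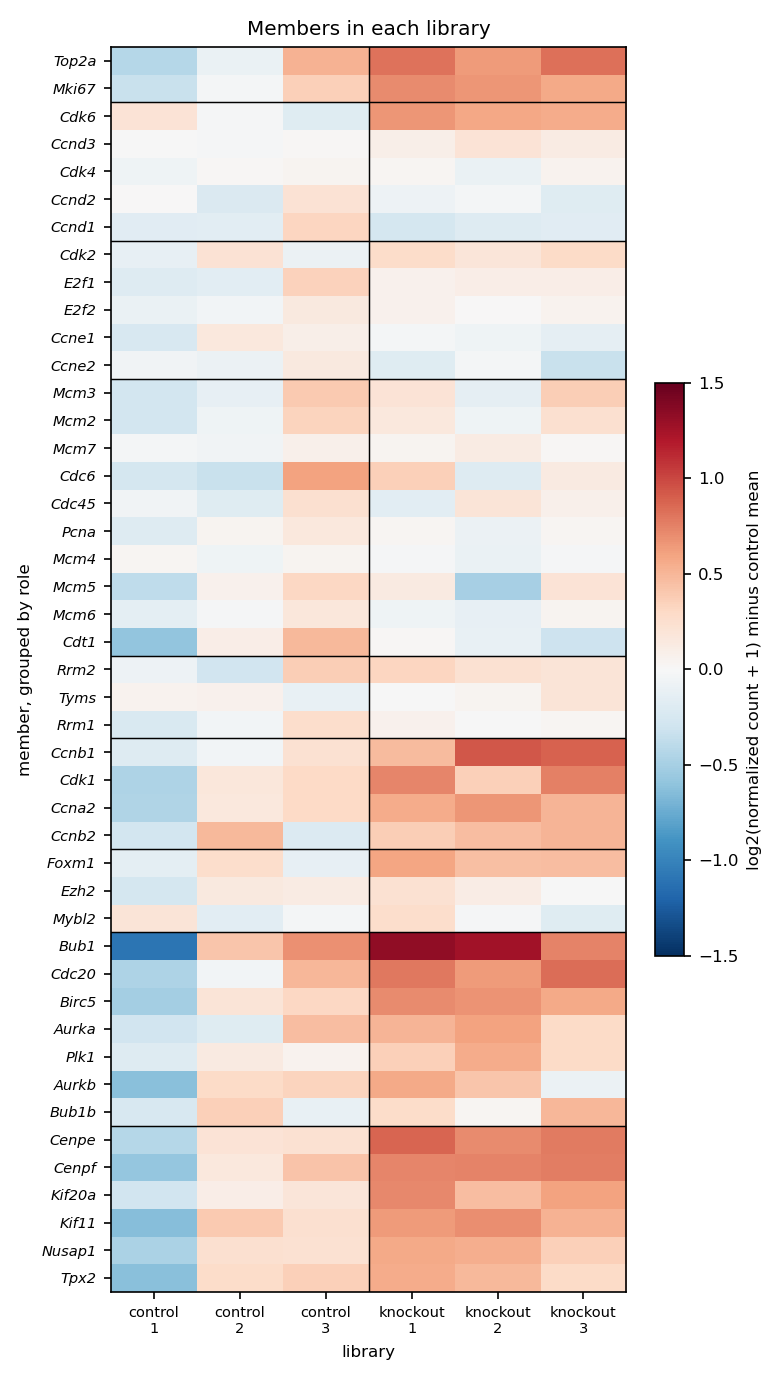
Each row is a member and each column a library, with the colour giving log2(normalized count + 1) minus the mean of the 3 controls. The mitotic rows are blue in control replicate 1 and red in the 3 knockout libraries, apart from Aurkb in knockout replicate 3, and the replication rows are mostly reddest in control replicate 3.

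The mitotic kinases and checkpoint genes time chromosome separation. None of the 7 passed, all 7 were positive and 4 had every knockout library above every control, beside 48.1% and 9.42% of genes averaging 50 or more. Bub1, a checkpoint kinase, had the largest log2 fold change of all members, 0.97 ± 0.42 (DESeq2 adjusted p = 0.290), from 27.8, 80.6 and 97.6 normalized counts in the controls to 154, 146 and 102 in the knockout libraries. Control replicate 1 was far below the other controls, and knockout replicate 3 lay only just above control replicate 3. Without control replicate 1 its log2 fold change was 0.59. Plk1, a kinase of mitotic entry and exit, had 173, 217 and 205 against 252, 289.8 and 241 (0.40 ± 0.20, DESeq2 adjusted p = 0.404). Aurka, the Aurora A kinase of the spindle poles, had 169, 180.5 and 284 against 292, 311 and 251 (0.43 ± 0.24, DESeq2 adjusted p = 0.501), and control replicate 3 lay inside the knockout range. Left without that library, Aurka was at 0.71 and passed (DESeq2 adjusted p = 0.0166). The smallest change of the role was that of Bub1b, another checkpoint kinase, at 0.26 ± 0.22 with overlapping groups, and it ran from 0.13 without knockout replicate 3 and 0.14 without control replicate 1 to 0.46 without control replicate 2. Cdc20, the activator of the anaphase-promoting complex, was at 0.71 ± 0.25 (DESeq2 adjusted p = 0.112), Birc5, survivin of the chromosomal passenger complex, at 0.62 ± 0.31, and Aurkb, its kinase, at 0.27 ± 0.35. Without control replicate 1, Birc5 was at 0.40 and Aurkb at 0.012, and without control replicate 3, Cdc20 was at 1.00 and passed (DESeq2 adjusted p = 0.000386).

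The late regulators of transcription and chromatin were divided. Foxm1, the forkhead factor of mitotic genes, had 315, 417 and 320.4 normalized counts in the controls and 525, 477 and 481 in the knockout libraries, with no overlap (log2 fold change 0.49 ± 0.17, DESeq2 adjusted p = 0.0873). Without control replicate 2 it was at 0.64 and passed (DESeq2 adjusted p = 0.00487). Mybl2, which encodes B-Myb, had 176, 137 and 151 against 185, 152 and 136 (0.03 ± 0.24, DESeq2 adjusted p = 0.988). Ezh2, the histone methyltransferase of Polycomb, had 411, 546 and 540.0 against 579.9, 536 and 491 (0.10 ± 0.16, DESeq2 adjusted p = 0.916). In contrast to Foxm1, the groups of Mybl2 and Ezh2 overlapped widely.

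No replication member passed, beside 2.19% of all genes. Every one had overlapping groups, where 9.42% of genes averaging 50 or more were higher and 8.54% lower in every knockout library. Mcm2, a subunit of the MCM helicase, had 1173, 1361 and 1795 normalized counts in the controls and 1587, 1361 and 1680.5 in the knockout libraries (log2 fold change 0.10 ± 0.16, DESeq2 adjusted p = 0.920), with a 95% interval from -13.5% to 32.1%. Pcna, the sliding clamp of the fork, had 2337, 2757 and 2976 against 2736, 2509 and 2736 (-0.02 ± 0.11, DESeq2 adjusted p = 0.983), with an interval from -14.5% to 14.4%. The intervals of Mki67, from 25.0% to 89.1%, and of Top2a, from 25.3% to 114%, overlap that of Mcm2 and not that of Pcna. Over the 10 licensing and fork genes, the extremes were Mcm3, another helicase subunit, at 0.13 ± 0.20 and Cdt1, a loading factor of the helicase, at -0.19 ± 0.29. Mcm3 ran from 0.0027 without control replicate 1 to 0.36 without control replicate 3. The interval of Cdt1 ran from -40.7% to 28.8% and that of Cdc6, its partner in loading, from -36.7% to 71.0%. These are low genes, and both intervals overlap that of Mki67. Cdc6 ran from -0.11 without control replicate 2 to 0.43 without control replicate 3.

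The nucleotide synthesis genes belong to the same part of the cycle. Rrm2, the regulated subunit of ribonucleotide reductase, had 357, 309 and 486 normalized counts in the controls and 470.3, 441 and 433 in the knockout libraries (log2 fold change 0.22 ± 0.19, DESeq2 adjusted p = 0.761), with a 95% interval from -9.59% to 51.0%, and the log2 value was 0.09 without control replicate 2 and 0.43 without control replicate 3. Rrm1, the large subunit, was at 0.01 ± 0.12 (DESeq2 adjusted p = 0.991) and Tyms, thymidylate synthase, at 0.08 ± 0.14 (DESeq2 adjusted p = 0.933). For Rrm1 and Rrm2 control replicate 3 was the highest of the 6 libraries.

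**Figure D3:**
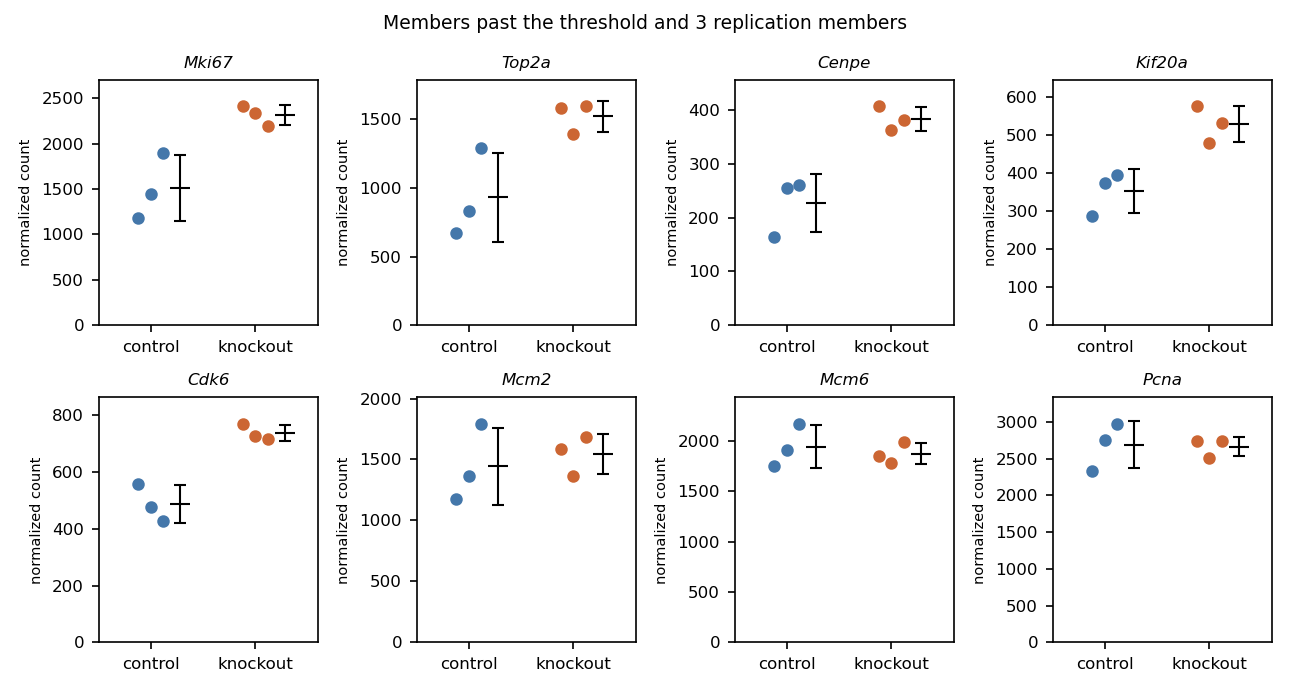
Normalized counts of the 5 members past the threshold and of Mcm2, Mcm6 and Pcna in each library, with the mean and SD of each group beside the points. The groups are apart in the first 5 panels and overlap in the last 3.

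Genes of G1 were the most abundant members. On the TPM scale, which allows genes to be compared, Ccnd2 (cyclin D2) took 51.2% to 57.9% of the summed level of the 45 members in each library, at 302 to 412 TPM in controls and 327 to 348 TPM in knockouts. Ccnd1 (cyclin D1) followed at 73.4 to 108 TPM over the 6 libraries and Cdk4 at 59.0 to 68.5 TPM. Then came Pcna at 23.5 to 27.9 TPM and E2f1 at 10.8 to 15.5 TPM. By the mean, Ccnd3 (cyclin D3) was next at 8.95 to 10.5 TPM, and the ranges of E2f1 and Ccnd3 did not overlap. Those of Mcm6 (8.56 to 10.5 TPM) and Mcm7 (8.54 to 9.72 TPM) overlapped that of Ccnd3. Mki67 was at 2.85 to 5.56 TPM and Cdk6 at 0.687 to 1.28 TPM. The 19 mitotic members together made up 3.25% to 6.40% of the summed level.

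Cdk6, the partner of D-type cyclins other than Cdk4 (ENSMUSG00000040274, chromosome 5, 3341485 to 3531008, plus strand), rose. It had 559, 478 and 426 normalized counts in the controls and 771, 726 and 714 in the knockout libraries, so the groups were apart and, unlike the mitotic members, control replicate 1 was the highest control. Means of 488 ± 67.0 and 737 ± 29.7 (SD, n = 3 each) put the log2 fold change at 0.59 ± 0.14 (DESeq2 adjusted p = 0.00334, edgeR adjusted p = 0.201). It passed in 5 of the 6 leave-one-out fits, the exception being that without knockout replicate 1 (adjusted p = 0.0963). Gm17590, whose exons share 368 bases with Cdk6 on the opposite strand, had 0 counts in every library.

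Its paralog Cdk4 had 8699, 9256 and 9403 normalized counts in the controls and 9272, 8538 and 9437 in the knockout libraries (log2 fold change -0.01 ± 0.07, DESeq2 adjusted p = 0.991), with a 95% interval from -10.0% to 10.2%. Cdk4 stayed at 50.6 to 94.9 times the TPM of Cdk6. That ratio was 67.0, 83.4 and 94.9 in control replicates 1 to 3 and 51.8, 50.6 and 56.9 in knockout replicates 1 to 3, lower in each knockout library than in any control.

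None of the D-type cyclins passed. Ccnd1 had 15921, 16085 and 22503 normalized counts in the controls and 14899, 15634 and 15877 in the knockout libraries (log2 fold change -0.23 ± 0.12, DESeq2 adjusted p = 0.477). Its groups did not overlap, as in 8.54% of genes with a mean of at least 50 that were lower in every knockout library, but knockout replicate 3 and control replicate 1 were nearly equal, and control replicate 3 stood apart. Without that library the log2 fold change of Ccnd1 was -0.049. Ccnd2 had 148771, 127597 and 172144 against 140978, 145742 and 130384 (-0.10 ± 0.11, DESeq2 adjusted p = 0.822), with wide overlap. Ccnd3 had 3562, 3531 and 3614 against 3781, 4103 and 3893 (0.14 ± 0.07, DESeq2 adjusted p = 0.484), a small difference with the groups apart. Exons of all 3 D-type cyclins overlap another gene on the opposite strand, as do those of 15 of the 45 members, and such counts are uncertain.

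**Figure D4:**
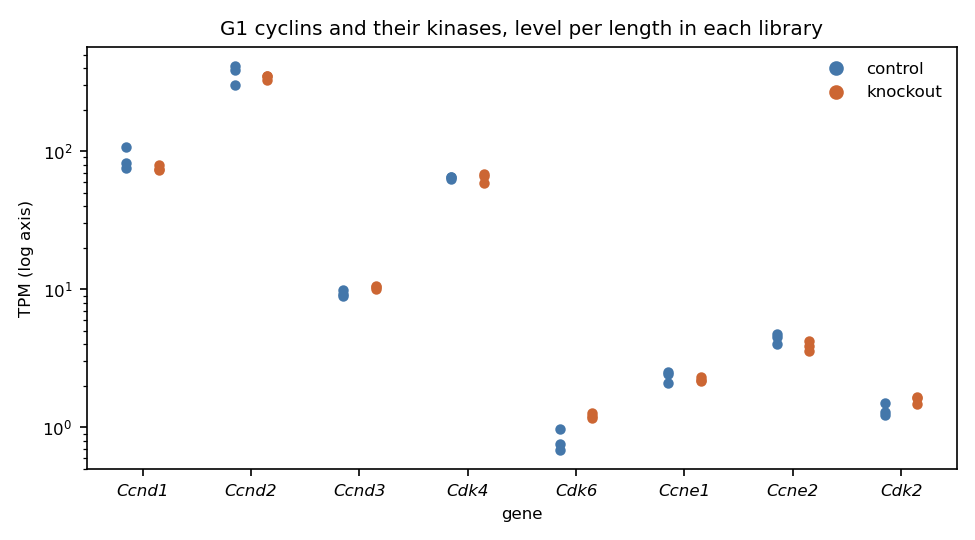
TPM of the D-type and E-type cyclins and of their kinases in each library, on a log axis, with controls at the left and knockouts at the right of each gene. Ccnd2 is highest in all 6 libraries, at 302 to 412 TPM, and Cdk6 is the gene whose knockout points lie farthest above its controls.

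At the G1/S border 0 of 5 members passed, beside 2.19% of all genes, and all groups overlapped. Of genes averaging 50 or more, 9.42% were higher and 8.54% lower in every knockout library. Ccne1, cyclin E1, had 228, 301 and 289 normalized counts in the controls and 266, 258 and 247 in the knockout libraries (log2 fold change -0.08 ± 0.19, DESeq2 adjusted p = 0.949). Ccne2, cyclin E2, was the most negative of the role at -0.18 ± 0.14 (DESeq2 adjusted p = 0.714). When a library was left out, Ccne2 ran from -0.26 (without knockout replicate 2) to -0.11 (without control replicate 3), and Ccne1 from -0.20 (without control replicate 1) to -0.0054 (without control replicate 2). Cdk2, the kinase of E and A cyclins, was the most positive at 0.24 ± 0.16 (DESeq2 adjusted p = 0.625), with 331, 417 and 337 against 435, 409 and 440.1. The activating factors E2f1 and E2f2 were at 0.07 ± 0.14 and 0.04 ± 0.13. Without control replicate 3, E2f1 was at 0.26 and passed (DESeq2 adjusted p = 0.0272), and E2f2 was at 0.11.

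Libraries differed within a group as well. Control replicate 1 was the lowest of the 6 libraries for 19 of the 19 mitotic members and for 6 of the 13 replication members. Control replicate 3 was the highest control for 14 of the 19 and the highest of all 6 libraries for 11 of the 13. The summed level of the mitotic members was 21.7, 28.4 and 32.0 TPM in control replicates 1 to 3 and 41.6, 39.1 and 40.5 TPM in knockout replicates 1 to 3. That of the replication members was 73.8, 73.8 and 86.5 TPM against 80.8, 72.8 and 83.4 TPM. Their ratio, mitotic over replication, was 0.293, 0.385 and 0.370 in controls and 0.515, 0.537 and 0.486 in knockouts, with no overlap. The sum of all 45 members, which the D-type cyclins dominate, was 663 ± 83.1 TPM in controls and 640.5 ± 8.43 TPM in knockouts (SD, n = 3 each).

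Some markers of other cells in the preparation also differed between the groups, to be read against 2.19% of all genes called and 9.42% of genes averaging 50 or more with every knockout library above every control. Of 10 acinar markers, Ptf1a passed, 9 were positive with groups apart, and Amy2a2 was at 0 in every library. Their summed level was 8969 to 17541 TPM in controls and 23370.2 to 31753 TPM in knockouts. Of 9 mesenchymal and pericyte markers, 5 passed as higher (Col1a1, Col1a2, Col3a1, Pdgfra and Dcn), while Pdgfrb, Rgs5, Cspg4 and Acta2 did not pass. In that list 7 were positive and 2 negative, down to -0.29 on the log2 scale. There 6 were higher and 1 was lower in every knockout library, the latter beside 8.54% of genes averaging 50 or more. None was at 0, and the sum was 319 to 344 TPM against 425 to 442 TPM. Of 8 macrophage markers 2 passed (Cd68 and C1qb), with sums of 176 to 209 and 179 to 204 TPM. Of 8 duct markers 2 passed (Krt7 and Muc1), with sums of 279 to 320.4 and 307 to 359 TPM, and the lymphocyte sum was 25.9 to 30.2 against 23.2 to 24.4 TPM. Of 8 endothelial markers 0 passed in DESeq2 or edgeR (1 at an unadjusted p below 0.05 in each), with sums of 535 to 647 and 625 to 687 TPM. Of 10 alpha-cell markers 4 fell, and the sum was 62184 to 88200.3 TPM against 47055 to 56162 TPM. Of 9 beta-cell markers 1 passed as lower, 4 were positive and 3 were lower in every knockout library. Their sums were 372341 to 404476 and 391610 to 405645 TPM. Of 5 delta-cell markers 0 passed, 1 was positive and 2 were at an unadjusted p below 0.05, both lower. In edgeR 0 beta-cell and 0 delta-cell markers passed. By edgeR, 3 of the mesenchymal markers passed (Col1a1, Col1a2 and Pdgfra) and 0 of the acinar, macrophage, duct and alpha-cell markers, of which 9, 3, 2 and 6 had an unadjusted p below 0.05. Their part in the mitotic difference was not tested. All knockout libraries were higher than all controls in the acinar, the mesenchymal and the mitotic sums. The acinar sum was 9904, 17541 and 8969 TPM in control replicates 1 to 3. Control replicate 3 was thus the lowest control in the acinar sum, and it was the highest control in the mitotic sum (32.0 TPM).

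**Figure D5:**
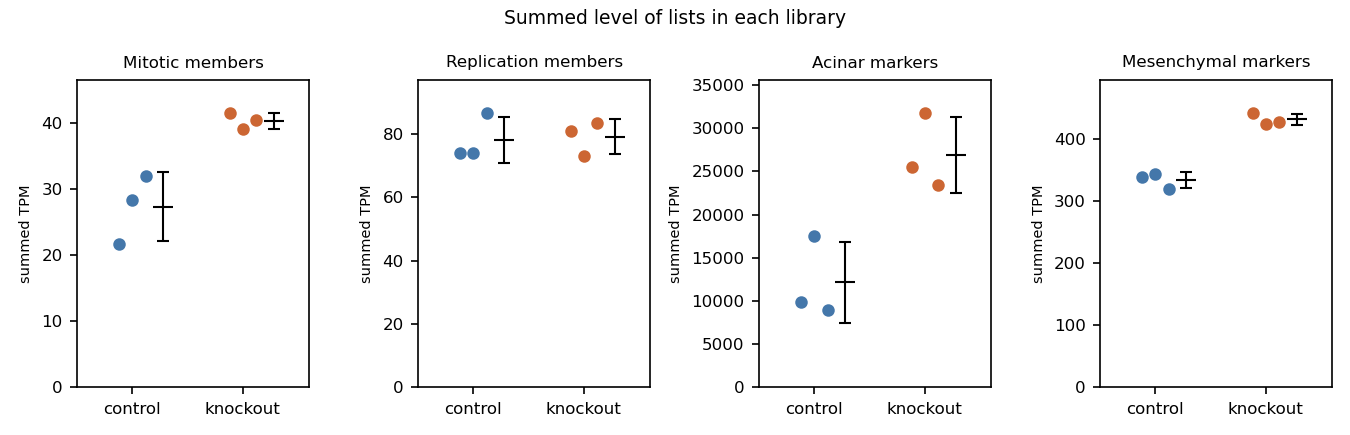
Summed TPM in each library for the 19 mitotic members, the 13 replication members, the 10 acinar markers and the 9 mesenchymal and pericyte markers, with group means and SD. The mitotic, acinar and mesenchymal sums are higher in every knockout library than in any control, and the replication sums overlap.

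Other genes of the cycle, from lists of 132 genes that hold no member, were read from the same fit. Of 58 other mitosis genes, 2 rose and 0 fell, where 2.19% of all genes passed. In the same list 54 were positive and 25 had every knockout library above every control, where 48.1% and 9.42% of genes averaging 50 or more did so, and the median log2 fold change was 0.39. Iqgap3, a scaffold protein linked to proliferation, had 159, 179 and 172 normalized counts in the controls and 266, 289 and 250.5 in the knockout libraries (0.66 ± 0.19, DESeq2 adjusted p = 0.0274, edgeR adjusted p = 0.240). Anln, anillin of the cleavage furrow, had 248, 354 and 335 against 519, 477 and 433 (0.61 ± 0.18, DESeq2 adjusted p = 0.0391, edgeR adjusted p = 0.310). Both sets of groups were apart. Neither gene passed in edgeR, which called 0 of the 58 (22 at an unadjusted p below 0.05), nor in DESeq2 without control replicate 1 or without any 1 of the 3 knockout replicates.

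Of 35 other replication genes 0 passed in either tool (2 at an unadjusted p below 0.05 in each), beside 2.19% of all genes in DESeq2. Of the 35, 27 were positive and 5 had every knockout library above every control. Of genes averaging 50 or more, 48.1% and 9.42% did so. The median of the list was 0.14. Exo1, an exonuclease of repair, was the most positive at 0.50 ± 0.41 (DESeq2 adjusted p = 0.746). Orc6, a subunit of the origin recognition complex, was the most negative at -0.44 ± 0.16 (DESeq2 adjusted p = 0.116), and its 1448, 1848 and 1245 normalized counts in the controls lay above the 1179, 1201 and 964 of the knockout libraries. Orc6 passed as lower without control replicate 3 (-0.56, DESeq2 adjusted p = 0.00652) and was at -0.27 without control replicate 2, while Exo1 ran from 0.23 without control replicate 1 to 1.03 without control replicate 3. Of 19 cyclins and kinases with other tasks, such as transcription, 0 passed in either tool (1 and 2 at an unadjusted p below 0.05 in DESeq2 and edgeR). In that list 4 were positive, 1 was higher and 1 was lower in every knockout library. Of genes averaging 50 or more, 48.1%, 9.42% and 8.54% were so. The median was -0.06, with extremes at Ccng2 (0.20 ± 0.10) and Ccnt1 (-0.19 ± 0.07). Without control replicate 3, Ccng2 was at 0.12 and Ccnt1 passed as lower (-0.21, DESeq2 adjusted p = 0.0231), as did Ccnl1 of the same list.

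Of 20 pocket proteins, other E2F factors and inhibitors of cyclin-dependent kinases, 0 passed in either tool (1 at an unadjusted p below 0.05 in each). DESeq2 called 2.19% of all genes. Of the 20, 13 were positive and 4 had every knockout library above every control, where 48.1% and 9.42% of genes averaging 50 or more did so. The median of the list was 0.07. Cdkn2b, which encodes the inhibitor p15 of Cdk4 and Cdk6, was the most positive at 0.43 ± 0.43 (DESeq2 adjusted p = 0.817). Its normalized counts were 612, 269 and 751 in the controls and 696, 683 and 826 in the knockout libraries. The most negative was its neighbour Cdkn2a, with 39.7, 1026 and 29.7 against 41.6, 18.6 and 33.9, to which DESeq2 gave no p because control replicate 2 stood so far from the rest. The same library was the lowest of the 6 for Cdkn2b. Without it Cdkn2b was at 0.11 and Cdkn2a at -0.14 on the log2 scale, and without control replicate 3 Cdkn2b was at 0.74. Cdkn1b, which encodes p27 and was picked after its values were seen, had 10767 to 11617 in controls and 10497 to 11220.4 in knockouts, which overlap.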

How the data were processed

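Polyadenylated islet RNA was sequenced in 3 control and 3 knockout libraries. The deposited values are whole-number counts of reads per gene, not normalized. Per the submitters' processing notes, FastQC, STAR, featureCounts and DESeq2 were used with build mm10, and the strand setting is not given in the sources used here. All 55536 gene identifiers matched GENCODE M21 (GRCm38), which gave coordinates, overlaps and merged exon lengths for TPM. Each column's name gives its genotype group and number, and 0 columns were left unused.

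The test follows the design text, which gives DESeq2 with no correction for batch. Here DESeq2 1.42.0 in R 4.3.3 was fitted to all genes with at least 10 counts in total, with genotype as the only term, unshrunken log2 fold changes and Benjamini-Hochberg adjustment over all genes at 0.05. Intervals are log2 fold change ± 1.96 SE. The edgeR 4.0.16 quasi-likelihood test and 12 other settings served as alternatives. Scripts were tested on simulated data. The members and lists were chosen with earlier results of these data known. Named members are those past the threshold, a list of landmarks and the extremes of each role. In the deepest and shallowest library, 3 counts are 0.0272 and 0.0296 CPM, and the spread between libraries sets the precision. Same-numbered libraries did not visibly deviate together (correlations of -0.059 to 0.010, beside -0.024 to 0.066 for libraries with different numbers). With 3 libraries in each group this check cannot exclude that the numbers pair the samples, so a fit with a replicate block is given among the alternatives.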

Additional observations from a re-analysis of the deposited data

How the results depend on the processing

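Across the 13 alternatives all 19 mitotic members stayed positive, with medians of 0.39 to 0.71, and the replication median ran from -0.035 to 0.12. The edgeR test gave 29 genes, 0 members and 0 related genes past the threshold, in place of 389, 5 and 2, and an adjusted p of 0.1 gave 614, 8 and 6. Without independent filtering 1 related gene passed. Leaving out each library gave 153 to 952 genes, 0 to 11 members and 0 to 16 related genes. The summed level of the members, -0.05 on the log2 scale, was 0.155 without the D-type cyclins, Cdk4 and Cdk6, which hold most of it. With the replicate block DESeq2 gave 405 genes, 4 members (Cdk6, Cenpf, Mki67 and Top2a) and 1 related gene (Orc6, lower, adjusted p of 0.0365), with a member median of 0.25 (0.13 to 0.29 over the fits that left out a library); Kif20a and Cenpe were lost there (adjusted p of 0.116 and 0.0613). Of 416 results for 32 named members, 367 kept direction and side, 23 were weaker, 11 stronger and 15 reversed. The reversed ones, none past the threshold, all came from leaving out a library, with ranges of -0.033 to 0.28 for Mcm2, -0.097 to 0.16 for Rrm1, -0.021 to 0.17 for Ezh2, -0.040 to 0.038 for Cdk4, -0.11 to 0.063 for Pcna, -0.11 to 0.13 for Mybl2, -0.21 to 0.0093 for Ccnd2 and -0.44 to 0.076 for Cdt1. The cause was not tested.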

Other observations

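Spc25, a subunit of the NDC80 complex that ties chromosomes to the spindle, had a mean of 113 TPM over the 6 libraries, where its partners Spc24, Ndc80 and Nuf2 lay between 0.444 and 1.98 TPM and the highest mean among the 57 other genes of its list was 14.9 TPM. It was singled out after its values were seen. Its normalized counts were 12319, 10409.8 and 20637 in the controls and 15316, 17434 and 17407 in the knockout libraries (log2 fold change 0.21 ± 0.28, DESeq2 adjusted p = 0.892). Without control replicate 3, the highest library, it was at 0.56 and passed (DESeq2 adjusted p = 7.83e-07), and without control replicate 2 it was at 0.021. In GENCODE M21 its start lies 4878 bases from the start of G6pc2, an abundant beta-cell gene that runs the other way on the opposite strand, and the Spc25 count was 5.13% to 8.05% of the G6pc2 count in each library. Ndc80 had 49.6, 76.8 and 121 normalized counts in the controls and 166, 151 and 188 in the knockout libraries, which were all above the controls (1.03 ± 0.33, DESeq2 adjusted p = 0.0719, edgeR adjusted p = 0.343), and it passed without control replicate 3 (1.41, DESeq2 adjusted p = 0.000455).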
